A study of Mus musculus with 6 samples.

Results

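Cholesterol is made in animal cells from acetyl-CoA by a long chain of enzymes, and the choice of genes here follows that chain: the enzymes of synthesis, the sterol-sensing proteins that switch them on and off, and the genes for handling of cholesterol once it is made or taken up. The set was given by name and holds 29 genes, of which 27 had at least 1 probe set named for that gene alone, out of 18193 such genes on the array. Acat2 and Nr1h2 were not analysed here, because no probe set was named for either gene alone. All 27 genes also passed the filter on dim signals and were among the 12681 genes tested. They were read by 58 probe sets, the groups of short probes that Affymetrix arrays use for 1 transcript, of which 53 passed the filter.

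The first part of the chain runs from acetyl-CoA through mevalonate to farnesyl diphosphate, the second joins farnesyl units into squalene and closes the rings to give lanosterol, and the last trims lanosterol to cholesterol. SREBP transcription factors, made as membrane proteins of the endoplasmic reticulum, drive most genes of the chain. When sterols are scarce, the escort protein Scap carries SREBP to the Golgi for cleavage, and when sterols are plentiful the Insig proteins hold Scap back. Oxysterols act through the LXR nuclear receptors, which induce genes of cholesterol export. The choroid plexus is the epithelial tissue that secretes cerebrospinal fluid. Brain tissue behind the blood-brain barrier makes its own cholesterol because that barrier keeps out lipoproteins, and the supply of lipoproteins to the plexus was not measured here.

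The data were 6 arrays of lateral ventricle choroid plexus from male mice of CD1, an outbred stock, 3 aged 18 months and 3 aged 2 months, with no other treatment or genotype in the labels. The plexuses of the left and right ventricle of a mouse went onto 1 array, which makes the mouse the replicate. Values are log2 of the deposited normalized intensity, in which a difference of 1 is a doubling, and differences are 18 months minus 2 months throughout. Ttr, the carrier of thyroxine that defines plexus epithelium, had log2 intensities of 14.36, 14.30 and 14.25 at 18 months, against 14.48, 14.48 and 14.46 at 2 months. The ages did not overlap for Ttr, with the mice at 18 months lower. The mean over 14 markers of plexus epithelium lay between 12.11 and 12.16 in every mouse, but single markers went both ways. Of the 14, 9 were below 0 and 5 above (35.7%, background 50.4%). For 4 markers all mice at 18 months were below those at 2 months (28.6%, background 6.25%). Aqp1, a water channel, was higher by 0.64 (SE 0.24) (limma, unadjusted p = 0.0318, adjusted p = 0.682). Markers of neighbouring brain tissue were present in amounts that varied more from mouse to mouse, and Snap25, a synaptic gene, had 10.43, 11.63 and 12.29 at 18 months, against 11.10, 10.23 and 12.30 at 2 months. In bulk tissue, fewer cells of a type and less RNA per cell cannot be told apart.

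No gene of the set passed an adjusted p of 0.05 (limma, adjusted over 12681 genes, of which 0% passed). Measured differences were nevertheless above 0 for 19 of the 27 genes (70.4%), against 50.4% of all genes tested, and the median log2 difference was 0.19, against 0.00 over all genes tested. At an unadjusted p under 0.05, 4 of the 27 genes were higher at 18 months (14.8%, background 4.02%) and 0 were lower (background 3.03%). The 4 were Nsdhl, Insig1, Fdft1 and Cyp51. An ordinary 2-sample test gave 0 genes at an adjusted p of 0.05 and also 4 higher and 0 lower at an unadjusted p under 0.05, but with Dhcr7 in place of Cyp51. All 3 mice at 18 months lay above all 3 at 2 months for 6 genes (22.2%, background 7.06%), the same 4 with Msmo1 and Dhcr7, and below them for 1 gene, Sc5d (3.7%, background 6.25%). Leaving out 18-month replicate 1 or 3 or 2-month replicate 3 brought the 4 genes higher at an unadjusted p under 0.05 down to 2, and without 2-month replicate 3 there were 2 lower, Ggps1 and Sc5d. No test of the set against other genes was made, and these shares describe it beside the whole array.

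**Figure D1:**
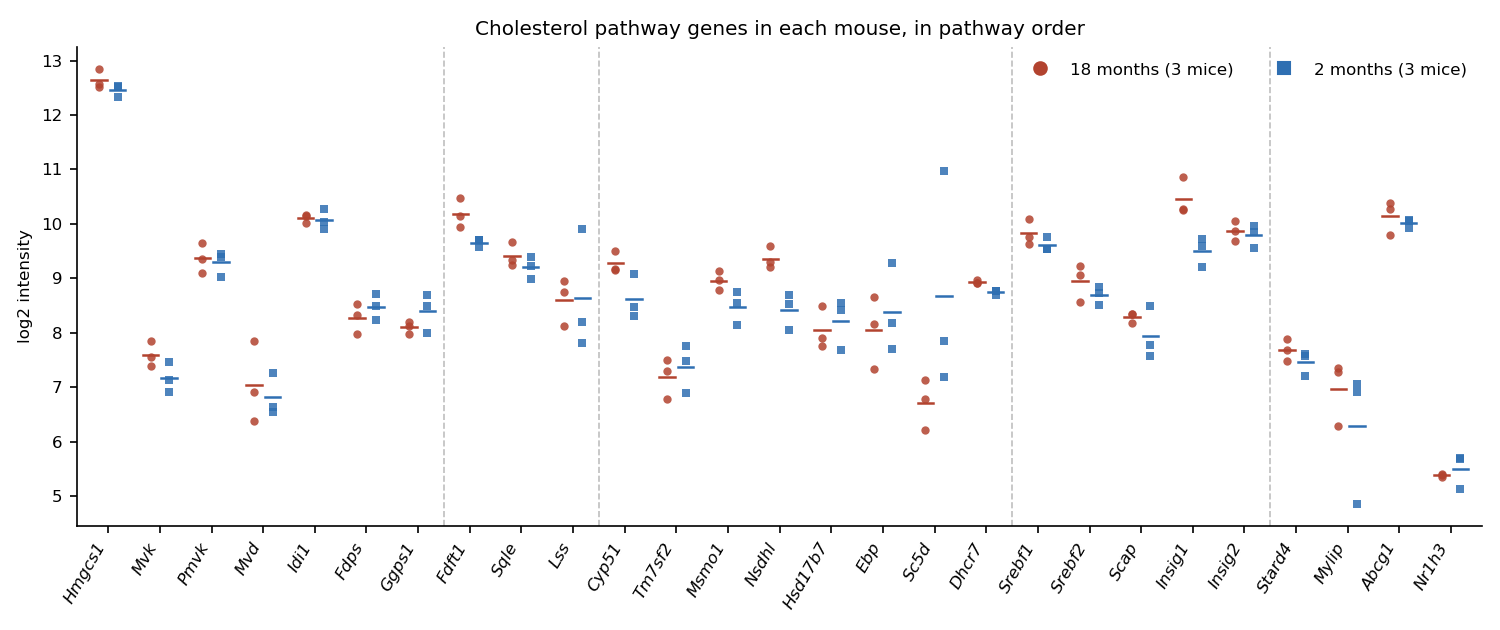
Log2 intensity (vertical axis) of the 27 genes with a probe set, in pathway order from left to right, with dashed lines between the roles. Points are single mice (3 at 18 months, left of each pair, and 3 at 2 months, right) and short bars are group means. The points of Insig1, Nsdhl, Fdft1, Cyp51, Msmo1 and Dhcr7 at 18 months lie above those at 2 months, and Sc5d has 1 mouse at 2 months at 10.97.

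The 5 genes with a probe set whose proteins control SREBP all had differences above 0 for their brightest probe set (background 50.4%), with a median of 0.25. Insig1 encodes the sterol-dependent retention protein that is itself made on SREBP's command, so that its transcript is often read as a gauge of SREBP activity. Its log2 intensities were 10.85, 10.26 and 10.27 at 18 months, against 9.59, 9.72 and 9.21 at 2 months. Every mouse at 18 months was at least 0.54 above the highest mouse at 2 months, and the 18-month replicate 1 was the highest of all. The group means were 10.46 ± 0.34 at 18 months and 9.51 ± 0.26 at 2 months (SD, n = 3 each). The difference was 0.96 (SE 0.24), or 1.94-fold, with a 95% confidence interval 0.38 to 1.54 (limma, unadjusted p = 0.00629, adjusted p = 0.562).

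Insig2 encodes the close relative that also retains Scap but is not induced by SREBP. Its values were 10.06, 9.68 and 9.87 at 18 months, against 9.97, 9.84 and 9.55 at 2 months, and the ages overlapped. Its difference was 0.08 (SE 0.20), with a 95% confidence interval -0.39 to 0.55. Its other probe sets above the filter gave -0.10 and -0.17, and the mean of all its probe sets gave -0.06. Within each mouse the Insig1 value minus the Insig2 value was 0.79, 0.59 and 0.40 at 18 months, against -0.38, -0.12 and -0.34 at 2 months. This shift of 0.88 between the ages separated all 6 mice (exact permutation p = 0.1, two-sided, the smallest p that 3 mice against 3 allow, and 0.15 after Benjamini-Hochberg adjustment over 3 pairs of genes). The pairs were chosen with the differences of their genes known, and the Insig1 values alone already separated the ages.

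The transcription factors and their escort were measured with smaller differences. Srebf1, which encodes the SREBP forms that chiefly favour fatty acid genes, had 9.76, 10.09 and 9.63 at 18 months, against 9.77, 9.55 and 9.54 at 2 months, a difference of 0.21 (SE 0.19). Srebf2, which encodes the form that favours cholesterol genes, had 8.56, 9.05 and 9.23 at 18 months, against 8.73, 8.84 and 8.52 at 2 months, a difference of 0.25 (SE 0.23). The ages overlapped for both genes, and the shift of the Srebf1 value relative to the Srebf2 value was -0.05 (exact permutation p = 1, two-sided). Scap, the escort, had 8.18, 8.34 and 8.35 at 18 months, against 7.78, 8.49 and 7.58 at 2 months, a difference of 0.34 (SE 0.26). That difference was 0.61 without 2-month replicate 2 (limma, unadjusted p = 0.0194) and 0.15 without 2-month replicate 3. The 3 mice at 18 months lay close together for Scap, inside the wider range of those at 2 months.

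**Figure D2:**
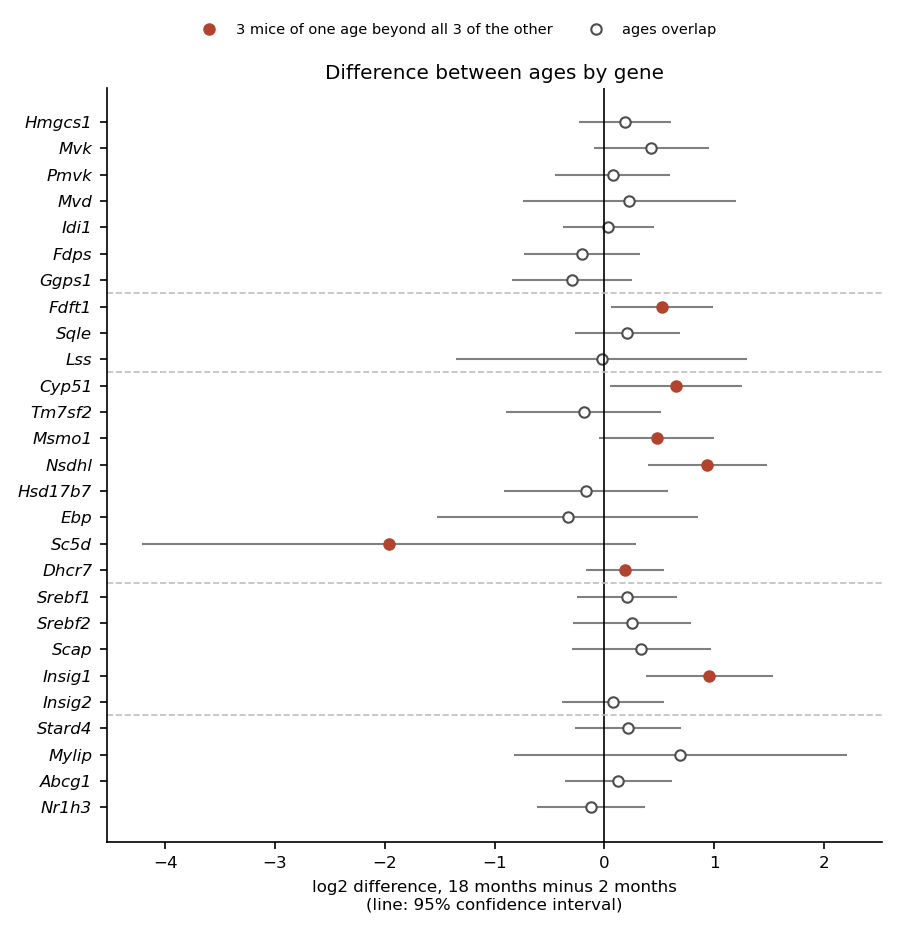
Log2 difference between the ages (horizontal axis, 18 months minus 2 months) for the 27 genes in pathway order from top to bottom. Circles are estimates, lines are 95% confidence intervals from limma, and filled circles mark the 7 genes whose mice did not overlap between the ages. The intervals of Insig1, Nsdhl, Fdft1 and Cyp51 lie above 0, and that of Sc5d is the widest.

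Enzymes of the first part of the chain differed little between the ages. Of 7 genes measured, 5 were above 0 (background 50.4%) and 2 below, with a median of 0.08, and the 2 ages overlapped for each of them. Hmgcs1, which makes HMG-CoA, had log2 intensities of 12.51, 12.85 and 12.57 at 18 months, against 12.32, 12.52 and 12.52 at 2 months, a difference of 0.19 (SE 0.18). Mvk, the kinase that adds the first phosphate to mevalonate, had 7.84, 7.56 and 7.40 at 18 months, against 6.91, 7.47 and 7.14 at 2 months. Its difference of 0.43 (SE 0.22) was the largest of these enzymes, and 1 mouse at 2 months lay among those at 18 months (limma, unadjusted p = 0.0945, adjusted p = 0.766).

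Pmvk, the kinase that adds the next phosphate, differed by 0.08 (SE 0.22). Mvd, which decarboxylates the product to isopentenyl diphosphate, had 7.84, 6.37 and 6.91 at 18 months, against 7.26, 6.63 and 6.55 at 2 months, a difference of 0.23 (SE 0.41) with 18-month replicate 1 and 2-month replicate 1 high in their groups. Idi1, which interconverts the isoprene units, had 10.17, 10.02 and 10.14 at 18 months, against 10.27, 9.91 and 10.04 at 2 months, a difference of 0.04 (SE 0.17). Its interval of -0.38 to 0.45 overlaps those of Insig1 (0.38 to 1.54) and Nsdhl (0.39 to 1.48). The other Idi1 probe set gave 0.22 (SE 0.19). Both synthases that lengthen the isoprene chain were below 0. Fdps, which makes farnesyl diphosphate, differed by -0.20 (SE 0.22), and Ggps1, which makes the geranylgeranyl diphosphate used to prenylate proteins, by -0.29 (SE 0.23). All 4 Ggps1 probe sets were below 0, from -0.50 to -0.17.

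At the branch point into sterols, Fdft1 encodes squalene synthase, the enzyme that commits farnesyl units to sterols. Its log2 intensities were 10.14, 9.94 and 10.48 at 18 months, against 9.57, 9.71 and 9.70 at 2 months. The lowest mouse at 18 months was 0.24 above the highest at 2 months, and the 3 mice at 2 months lay within 0.14 of each other. The difference was 0.53 (SE 0.19), or 1.44-fold, with a 95% confidence interval 0.07 to 0.99 (limma, unadjusted p = 0.0310, adjusted p = 0.682). The unadjusted p of Fdft1 was under 0.05 in 8 of 17 alternative settings, and with 1 mouse left out it held only without 18-month replicate 2. A second probe set of nearly the same brightness had 9.96, 9.998 and 10.33 at 18 months, against 9.55, 9.83 and 9.60 at 2 months, again without overlap. Sqle, the epoxidase that acts on squalene and a control point of the pathway, had 9.67, 9.24 and 9.34 at 18 months, against 8.997, 9.23 and 9.39 at 2 months, a difference of 0.21 (SE 0.20) with overlapping ages.

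Lss, which closes the rings to lanosterol, had 8.13, 8.74 and 8.96 at 18 months, against 9.90, 7.81 and 8.19 at 2 months. The 2-month replicate 1 stood 0.94 above every other mouse, and the estimate of -0.02 (SE 0.55) became 0.61 when that mouse was left out. Of 2 other Lss probe sets above the filter, 1 also had that mouse as the highest and read 8.19, 8.46 and 8.69 at 18 months, against 9.79, 7.66 and 7.999 at 2 months. The other did not show it as high and read 6.96, 7.68 and 7.72 at 18 months, against 7.38, 8.46 and 8.001 at 2 months.

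The trimming of lanosterol held 5 of the 7 genes whose ages did not overlap. Of its 8 genes, 4 were above 0 (background 50.4%) and 4 below, with a median of 0.01. All 3 mice at 18 months were above those at 2 months for 4 genes (background 7.06%) and below them for 1 (background 6.25%). Cyp51, the cytochrome P450 that removes the first methyl group of lanosterol, had log2 intensities of 9.51, 9.15 and 9.17 at 18 months, against 8.48, 9.09 and 8.30 at 2 months. The lowest mouse at 18 months was 0.06 above the highest at 2 months, so that the separation was narrow. The difference was 0.65 (SE 0.25), or 1.57-fold (limma, unadjusted p = 0.0379, adjusted p = 0.697). The unadjusted p of Cyp51 was also under 0.05 in 8 of 17 settings, and with 1 mouse left out only without 2-month replicate 2. Tm7sf2, a sterol reductase that acts on the product of Cyp51, had 7.49, 6.78 and 7.30 at 18 months, against 6.90, 7.76 and 7.48 at 2 months, a difference of -0.19 (SE 0.30).

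The next methyl groups are removed by Msmo1, Nsdhl and Hsd17b7 acting in turn as a complex. Msmo1, the oxidase, had 8.96, 8.78 and 9.14 at 18 months, against 8.75, 8.56 and 8.14 at 2 months. Its lowest mouse at 18 months was 0.03 above the highest at 2 months, and the difference was 0.48 (SE 0.22) (limma, unadjusted p = 0.0671, adjusted p = 0.733). Nsdhl, the dehydrogenase that removes the carboxyl group, had 9.20, 9.29 and 9.60 at 18 months, against 8.69, 8.53 and 8.06 at 2 months. Every mouse at 18 months was at least 0.52 above every mouse at 2 months.

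The Nsdhl means were 9.36 ± 0.21 at 18 months and 8.43 ± 0.33 at 2 months (SD, n = 3 each). The difference was 0.94 (SE 0.23), or 1.92-fold, with a 95% confidence interval 0.39 to 1.48 (limma, unadjusted p = 0.00503, adjusted p = 0.520), and the gene had the smallest p of the set. Hsd17b7, the ketoreductase of the complex, had 7.90, 8.49 and 7.76 at 18 months, against 8.42, 8.55 and 7.68 at 2 months, a difference of -0.17 (SE 0.31). Its other probe sets above the filter gave -0.31 and 0.16. Within each mouse the Nsdhl value minus the Hsd17b7 value was 1.30, 0.80 and 1.84 at 18 months, against 0.26, -0.02 and 0.38 at 2 months (exact permutation p = 0.1, two-sided, 0.15 after adjustment over the 3 pairs). This pair too was chosen with the differences known, and the Nsdhl values alone already separated the ages, so that it adds no new evidence.

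The last steps move and reduce double bonds of the sterol. Ebp, the sterol isomerase, had 8.66, 8.17 and 7.33 at 18 months, against 7.70, 9.28 and 8.19 at 2 months, a scatter within each age that exceeded its difference of -0.33 (SE 0.50). Sc5d, the desaturase, had 6.22, 7.13 and 6.78 at 18 months, against 10.97, 7.86 and 7.20 at 2 months. Its mice at 18 months lay below those at 2 months, but by only 0.07, and the 2-month replicate 1 was 3.11 above the next mouse of its age.

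The Sc5d difference was -1.96 (SE 0.94) with a 95% confidence interval -4.21 to 0.29 (limma, adjusted p = 0.746). Without the 2-month replicate 1 it was -0.82. That mouse also raised the mean brightness by which this probe set was chosen, 7.69 against 7.66 for the next. The next probe set had 7.53, 7.66 and 7.56 at 18 months, against 8.03, 7.96 and 7.20 at 2 months. Its ages overlapped, with a difference of -0.15, and the dimmest probe set gave 0.28 (SE 0.33). Dhcr7, the reductase of the final step, had 8.96, 8.91 and 8.92 at 18 months, against 8.70, 8.77 and 8.76 at 2 months. The ages did not overlap and each lay within 0.07, so that a difference of only 0.19 (SE 0.15) separated all 6 mice. The SE of Dhcr7 comes from a spread that limma moderates toward that of other genes and is larger than its own mice would give (limma, adjusted p = 0.833).

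Genes for handling of cholesterol came last in the set. Stard4, a soluble sterol carrier, had 7.88, 7.48 and 7.68 at 18 months, against 7.20, 7.58 and 7.62 at 2 months, a difference of 0.21 (SE 0.20). Mylip, the ubiquitin ligase that marks lipoprotein receptors for degradation and is induced by LXR, had 6.28, 7.35 and 7.29 at 18 months, against 7.06, 4.86 and 6.92 at 2 months. The 2-month replicate 2 stood 1.42 below every other mouse, and the difference of 0.69 (SE 0.63) became -0.02 without it. Abcg1, the exporter of cholesterol induced by LXR, had 9.80, 10.28 and 10.38 at 18 months, against 10.08, 10.06 and 9.93 at 2 months for its brightest probe set, a difference of 0.13 (SE 0.20). Its dimmer probe set had 7.03, 7.50 and 6.69 at 18 months, against 6.13, 5.92 and 6.63 at 2 months, without overlap and with a difference of 0.85. Nr1h3, which encodes LXR-alpha, was the dimmest gene of the set and had 5.35, 5.41 and 5.39 at 18 months, against 5.70, 5.68 and 5.13 at 2 months, a difference of -0.12 (SE 0.21). The highest of 27 probe sets for bacterial transcripts, a gauge of background, averaged 4.51, against 5.38 for Nr1h3 at 18 months and 5.50 at 2 months.

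Agreement between probe sets of 1 gene limited several of these values. For 12 genes, Nsdhl and Insig1 among them, only 1 probe set passed the filter, so that no comparison could be made. Of the other 15 genes, 7 had all probe sets on the same side of 0 and 8 did not. For Cyp51 the 3 probe sets gave 0.65, -0.42 and 0.94 from the brightest to the dimmest, the last without overlap between the ages. For Fdft1 the 2 bright probe sets gave 0.53 and 0.44 and a dim one -0.12. For Stard4 they ranged from -0.63 to 0.59 and for Msmo1 the dimmer one gave -0.27. When all probe sets of a gene were averaged, Cyp51 had a difference of 0.39, Fdft1 of 0.21, Msmo1 of 0.11 and Abcg1 of 0.49. In that setting Cyp51 (limma, unadjusted p = 0.113) and Fdft1 (limma, unadjusted p = 0.226) no longer had an unadjusted p under 0.05, and Abcg1 did (limma, unadjusted p = 0.0340). Whether the probe sets read different transcripts of a gene was not tested.

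**Figure D3:**
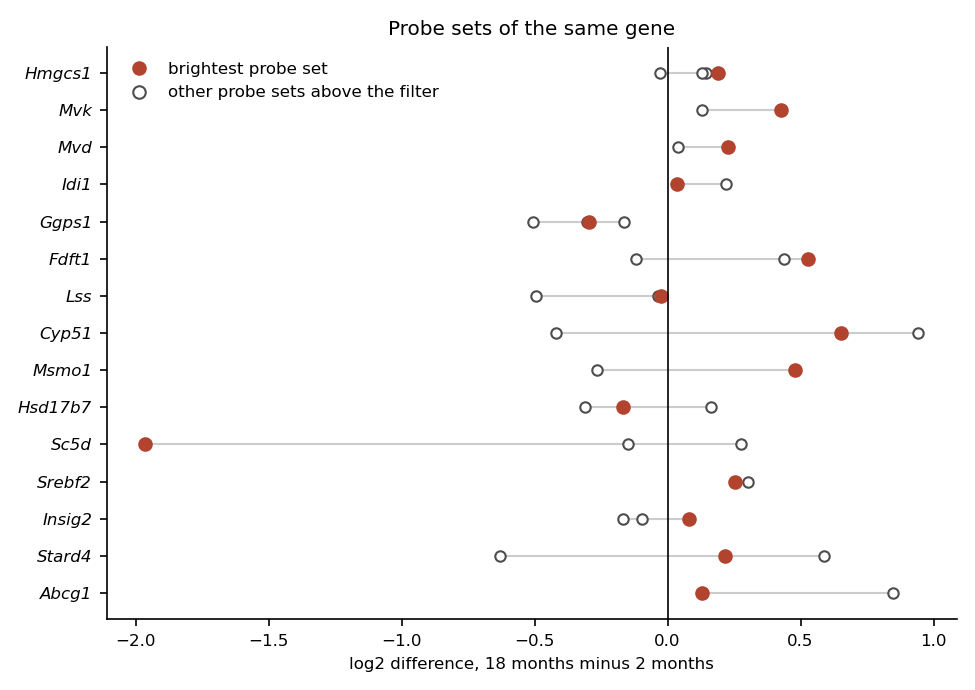
Log2 difference between the ages (horizontal axis, 18 months minus 2 months) for each probe set above the filter, for the 15 genes with more than 1. Filled circles are the brightest probe set of the gene, which stands for it in the text, and open circles are the others. The probe sets of Srebf2 lie within 0.05 of each other, and those of Sc5d span from -1.96 to 0.28.

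The promoters of 5 of these genes are shown because SREBP acts together with factors that bind the CCAAT box and the GC box beside its own site, the sterol regulatory element. They are those of the genes with the smallest p for which the table of promoters had an entry. That of Hmgcs1 was added because it held a match to the letters searched for the sterol element. Each is the 250 bases before the start of the gene in RefSeq, build GRCm38.p6, read 5′ to 3′ along the gene's strand, with the sterol element and each CCAAT in capitals. A CCAAT on the opposite strand reads as ATTGG here.
Nsdhl, chrX:72918271-72918520, plus strand: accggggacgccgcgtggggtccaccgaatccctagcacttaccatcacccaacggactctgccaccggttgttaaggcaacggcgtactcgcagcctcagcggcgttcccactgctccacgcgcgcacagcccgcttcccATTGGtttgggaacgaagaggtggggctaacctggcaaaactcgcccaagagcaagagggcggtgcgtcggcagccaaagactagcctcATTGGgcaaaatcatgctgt
Insig1, chr5:28071162-28071411, plus strand: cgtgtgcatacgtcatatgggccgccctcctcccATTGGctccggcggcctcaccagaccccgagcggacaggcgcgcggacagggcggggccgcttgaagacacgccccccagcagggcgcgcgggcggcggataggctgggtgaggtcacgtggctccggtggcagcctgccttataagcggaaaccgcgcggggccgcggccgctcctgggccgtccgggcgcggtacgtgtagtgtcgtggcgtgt
Cyp51, chr5:4104698-4104947, minus strand: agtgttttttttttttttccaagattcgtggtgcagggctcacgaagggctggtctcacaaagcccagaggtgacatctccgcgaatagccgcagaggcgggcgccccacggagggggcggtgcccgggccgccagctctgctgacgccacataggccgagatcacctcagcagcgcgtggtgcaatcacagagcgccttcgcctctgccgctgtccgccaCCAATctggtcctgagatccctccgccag
Msmo1, chr8:64733579-64733828, minus strand: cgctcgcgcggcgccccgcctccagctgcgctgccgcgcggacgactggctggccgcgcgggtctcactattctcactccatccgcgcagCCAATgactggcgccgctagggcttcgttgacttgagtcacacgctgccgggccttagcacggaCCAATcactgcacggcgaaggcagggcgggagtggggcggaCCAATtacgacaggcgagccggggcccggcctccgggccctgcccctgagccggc
Hmgcs1, chr13:119690101-119690350, plus strand: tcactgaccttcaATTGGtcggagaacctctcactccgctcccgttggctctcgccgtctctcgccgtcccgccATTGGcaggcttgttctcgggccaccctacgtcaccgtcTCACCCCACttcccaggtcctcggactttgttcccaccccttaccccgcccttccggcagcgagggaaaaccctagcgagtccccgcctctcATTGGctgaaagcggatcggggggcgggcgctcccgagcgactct

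Each motif was searched on both strands in windows from 250 bases before to 50 after the start, and 24 of the 29 genes had an entry with 33 windows in all. CCAAT was found in 63.6% of these windows, against 37.1% of the windows of all genes tested, and in 20 of the 24 genes. In Msmo1 it occurs 3 times in the stretch printed, and in Nsdhl and Hmgcs1 on the opposite strand. The GC box GGGCGG was found in 72.7% of the windows, against 60.8% for all genes tested. The sterol element, searched as TCACNCCAC, was found in 1 window, that of Hmgcs1 at bases -137 to -129 from the start, or 3.03% of the windows, against 1.2% for all genes tested. Only these letters were searched, so that a window without a match can still hold a sterol element of other letters. Matches of 2 different motifs shared bases in 0 windows, and a match here is of letters only. Hmgcs1, Idi1, Nsdhl and Insig1 are all among the 20 genes with CCAAT, and whether the motifs relate to the differences between the ages was not tested.

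Seen mouse by mouse, the set did not move as a block. Relative to the mean of each gene over 6 mice, the median deviation over the 27 genes was 0.08, 0.07 and 0.05 at 18 months, against -0.09, -0.03 and -0.25 at 2 months. The 2-month replicate 3 was the lowest of 6 mice for 10 genes and above the gene's mean for 6. The 18-month replicate 1 was the highest of 6 mice for 8 genes and the lowest for 2. The 2-month replicate 1 was the highest for 5 and the lowest for 6, and its high values for Lss and Sc5d show how far single genes parted from the rest. The mean log2 intensity over the 27 genes, in which such values weigh more, was 8.72, 8.72 and 8.72 at 18 months, against 8.74, 8.60 and 8.43 at 2 months, and the ages overlapped.

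**Figure D4:**
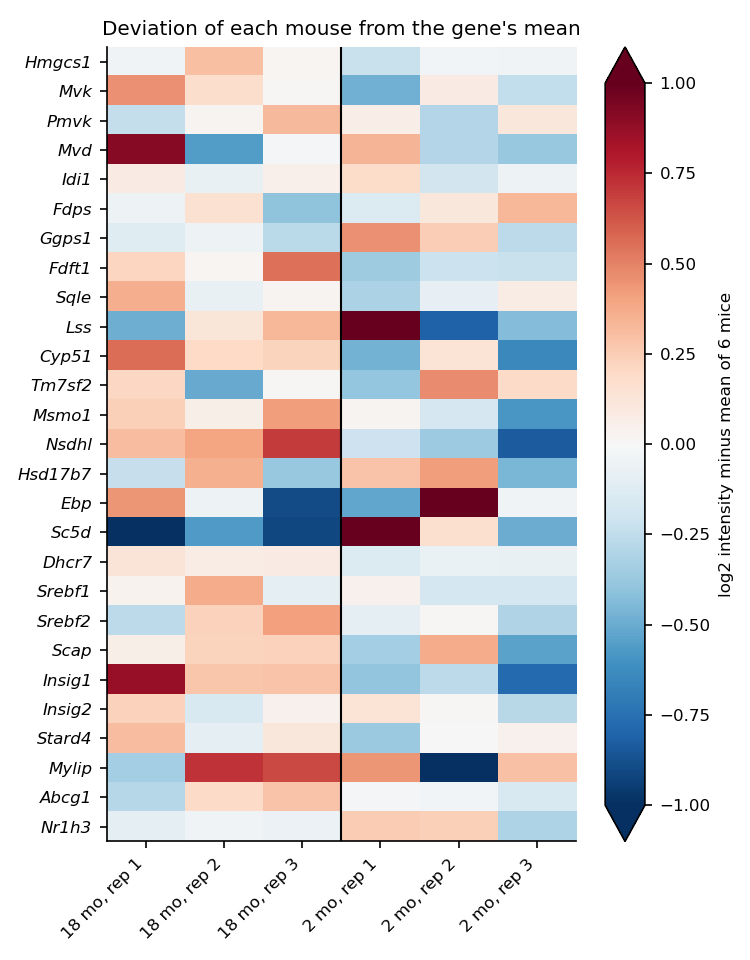
Deviation of each mouse (columns, 3 at 18 months left of the line and 3 at 2 months right) from the mean of each gene over 6 mice (rows, pathway order), on the log2 scale, with colours saturating at -1 and 1. Insig1 and Nsdhl are above their mean in every mouse at 18 months and below it in every mouse at 2 months, and the 2-month replicate 3 is the lowest mouse for 10 genes.

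Cell types that make or handle much cholesterol were followed beside the set through their markers. Oligodendrocytes, which build myelin, were followed through 15 markers, 13 of them with differences above 0 (86.7%, background 50.4%) and a median of 0.32. Their mean log2 intensity was 6.94, 7.41 and 8.28 at 18 months, against 7.17, 6.34 and 7.60 at 2 months, with 18-month replicate 3 highest and 2-month replicate 2 lowest. With the mean of these markers as a covariate, the difference was 1.15 for Insig1, 0.93 for Nsdhl, 0.86 for Cyp51 and 0.45 for Fdft1, and the median of the set was 0.18. In that fit Fdft1 no longer had an unadjusted p under 0.05 (limma, unadjusted p = 0.0809), while Mvk did, with a difference of 0.59 (limma, unadjusted p = 0.0288). Among these markers Myrf, a transcription factor of myelination, differed by 1.96 (SE 0.28) and the myelin protein gene Mog by 1.75 (SE 0.33), while the myelin gene Mbp had 10.21, 11.14 and 11.79 at 18 months, against 11.23, 10.01 and 11.85 at 2 months.

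Of 16 neuron markers, 9 were above 0 (56.2%, background 50.4%). Their mean was 6.88, 7.50 and 8.43 at 18 months, against 7.59, 7.01 and 8.51 at 2 months. With it as a covariate the difference was 0.92 for Insig1 and 0.93 for Nsdhl. The neuron mean averaged 7.60 at 18 months and 7.70 at 2 months, so that this covariate could shift a difference between the ages only a little. Of 11 astrocyte markers, 7 were above 0 (63.6%, background 50.4%). Their mean was 7.54, 7.70 and 8.42 at 18 months, against 7.69, 7.21 and 8.16 at 2 months. Macrophages, which carry LXR and Abcg1, were followed through 13 markers, 11 of them above 0 (84.6%, background 50.4%). Their mean was 8.14, 7.78 and 8.16 at 18 months, against 7.37, 7.18 and 7.70 at 2 months, without overlap. Markers of multiciliated and ependymal cells were below 0 for 12 of 12 genes and above for 0 (background 50.4%). Their mean was 8.12, 8.29 and 8.44 at 18 months, against 9.003, 8.63 and 9.25 at 2 months, also without overlap. For endothelium, 6 of 9 markers were above 0 (66.7%, background 50.4%), and the mean ran from 6.13 to 6.67 at 18 months and from 6.15 to 6.56 at 2 months. For stroma and mural cells, 2 of 10 were above 0 (20%) and 8 below, with a median of -0.38. That mean ran from 6.77 to 7.38 at 18 months and from 7.04 to 7.17 at 2 months. Single stromal genes went both ways, Pdgfra by 1.95 (SE 0.22) (limma, adjusted p = 0.118) and Dcn by -0.72 (SE 0.25) (limma, adjusted p = 0.672). No marker was at 0, since the lowest deposited intensity was 2.47. The part of macrophages, ciliated cells, astrocytes and vessels in the values of the set was not tested.

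**Figure D5:**
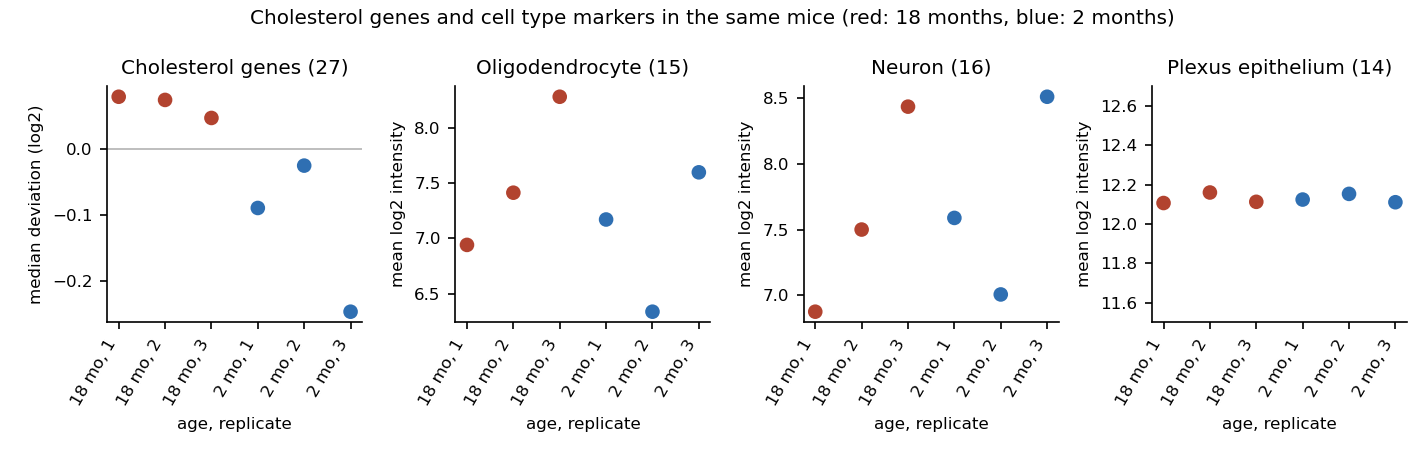
Values per mouse (horizontal axis, age and replicate; red, 18 months, blue, 2 months): the median deviation of the 27 cholesterol genes on the log2 scale (left) and the mean log2 intensity of the markers of oligodendrocytes, neurons and plexus epithelium. The median deviation is higher in each mouse at 18 months than in any at 2 months, although 8 of the 27 genes had differences below 0, while the oligodendrocyte and neuron means overlap between the ages and the epithelial mean stays between 12.11 and 12.16.

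Genes next to the chain in metabolism were read from lists of their own, and 0 of their genes passed an adjusted p of 0.05. Of 22 genes for cleavage and transport of SREBP and for turnover of Insig proteins, 9 were above 0 (40.9%, background 50.4%). Their median was -0.02, and 0 had an unadjusted p under 0.05. The smallest p belonged to Vcp, the ATPase that draws proteins out of the endoplasmic reticulum membrane, at 0.32 (SE 0.16), and to Faf2, a cofactor of Vcp, at 0.40 (SE 0.20). Erlin2, a membrane protein that takes part in Insig turnover, gave -0.42 (SE 0.22).

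Of 24 genes of fatty acid synthesis that SREBP also drives, 14 were above 0 (58.3%, background 50.4%), with a median of 0.06. Higher at an unadjusted p under 0.05 was 1 gene (4.17%, near the background of 4.02%). This was Slc25a1, the mitochondrial carrier that exports the citrate from which cytosolic acetyl-CoA is made, with log2 intensities of 9.35, 9.44 and 8.90 at 18 months, against 8.55, 7.98 and 7.88 at 2 months. Every mouse at 18 months was above every mouse at 2 months, with a difference of 1.09 (SE 0.25) (limma, adjusted p = 0.494). Acly, the enzyme that splits that citrate, had 10.69, 10.79 and 11.71 at 18 months, against 10.41, 10.36 and 10.51 at 2 months, without overlap and with 18-month replicate 3 far above the rest. Fads2, a fatty acid desaturase, had 10.62, 10.69 and 10.56 at 18 months, against 10.16, 10.48 and 10.18 at 2 months, also without overlap. The difference was 0.64 (SE 0.29) for Acly (limma, unadjusted p = 0.0676) and 0.35 (SE 0.17) for Fads2 (limma, unadjusted p = 0.0820). All mice at 18 months lay above those at 2 months for 4 of the 24 genes (16.7%, background 7.06%), and below them for 0 (background 6.25%).

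Of 9 genes of oxysterol and bile acid synthesis, 6 were above 0 (background 50.4%) and 1 was lower at an unadjusted p under 0.05 (background 3.03%). This was Cyp7b1, which hydroxylates oxysterols on the way to bile acids. Its log2 intensities were 7.20, 6.68 and 7.36 at 18 months, against 8.21, 8.32 and 7.88 at 2 months. The 3 mice at 18 months were all below those at 2 months, with a difference of -1.06 (SE 0.24) (limma, adjusted p = 0.472). Of 24 genes of cholesterol transport, esterification and efflux, 11 were above 0 (45.8%, background 50.4%), with a median of -0.02. Higher at an unadjusted p under 0.05 was 1 gene (4.17%, near the background of 4.02%). This was Gramd1a, which moves sterol from the plasma membrane to the endoplasmic reticulum. It had 7.95, 8.08 and 8.40 at 18 months, against 7.44, 7.51 and 7.85 at 2 months and a difference of 0.55 (SE 0.20) (limma, adjusted p = 0.682). Its lowest mouse at 18 months was 0.11 above its highest at 2 months.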

How the data were processed

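Total RNA of 6 plexus samples was measured on Affymetrix mouse arrays; per the labels' protocols it was isolated by miRNeasy, turned into amplified cDNA by the Nugen Pico method and tagged with biotin, and amplification can distort dim transcripts. The authors deposited 1 table of intensity values for 45101 probe sets, made with RMA per the submitters' processing notes (background correction, normalization between arrays and summary by probe set; version not given in the sources used here). Those intensities ran from 2.47 to 26820.7, a linear scale, and their log2 was taken here.

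Gene names came from the platform annotation, and probe sets with 1 gene symbol were used (34945 of 45037 that are not controls; 932 had several symbols and 9160 none). The brightest probe set stood for its gene, and the 12681 genes with a mean at or above the 40th percentile of probe sets other than controls (log2 4.92) were tested. The test of age was limma's moderated test (limma 3.58.1, R 4.3.3, two-sided, 6.61 degrees of freedom), with Benjamini-Hochberg adjustment over all genes tested; the script recovered planted changes when tested on simulated data. Intervals are 95% confidence intervals, and the number of arrays limits their precision. Promoters came from a RefSeq table. All members could be named. Genes named from related lists are among the 3 with the smallest p of their list, and from marker lists among the 2, not all of them shown, plus Ttr, Mog, Mbp and Snap25. The members, lists and tests were chosen with earlier results of these data known, so that they are no independent evidence. The alternatives were 2 other filters, the mean of all probe sets, 2 other normalizations, the replicate block, array weights, an ordinary 2-sample test, 2 covariates and leaving out each mouse; leaving out both arrays at the ends of principal component 1 was added after seeing the data.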

Additional observations from a re-analysis of the deposited data

How the results depend on the processing

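The count of genes above 0 in the set lay between 18 and 20 of 27 and the median between 0.13 and 0.21 under all 17 alternatives, and no gene of the set passed an adjusted p of 0.05 under any of them (lowest 0.411, Insig1 with the neuron covariate). Nsdhl and Insig1 kept an unadjusted p under 0.05 in each, with differences from 0.75 to 1.07 and from 0.76 to 1.16. Genes of the set higher at an unadjusted p under 0.05 numbered 4, and between 2 and 5 with 1 mouse left out (2 without 18-month replicate 1 or 3 or 2-month replicate 3); those lower numbered 0, and between 0 and 2 with 1 mouse left out (Ggps1 and Sc5d without 2-month replicate 3). Over all genes tested, those higher at an adjusted p of 0.05 numbered 0, and 3 with the 60th percentile filter, 5 with the mean of all probe sets, 4 with arrays centred on their medians, 3 with array weights and 1 with either covariate; those lower numbered 0, and 1 with the 60th percentile filter, centring or array weights. With the replicate block the set had 2 genes higher. The replicate numbers are not known to pair mice. Same-numbered mice deviated with correlations of -0.02, 0.02 and 0.17, and not every mouse correlated best with its own number. As in the main fit, 0 genes passed an adjusted p of 0.05 under the block, so that this count cannot tell whether mice were paired. The cause of these moves was not tested.

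Of 458 values of single genes under the alternatives, 25 changed sign, in 9 genes, none of which had an unadjusted p under 0.05 in any setting. Averaging all probe sets gave -0.062 for Insig2, and array weights gave -0.013 for Idi1. With the oligodendrocyte covariate Pmvk gave -0.12, Hsd17b7 0.035 and Ebp 0.18, and with the neuron covariate Lss gave 0.0044. With 1 mouse left out, Mvd ranged from -0.17 to 0.56, Lss from -0.43 to 0.61, Insig2 from -0.036 to 0.18, Tm7sf2 from -0.43 to 0.016, Pmvk from -0.068 to 0.21, Ebp from -0.68 to 0.11, Idi1 from -0.045 to 0.14, Hsd17b7 from -0.44 to 0.00040 and Mylip from -0.018 to 1.09. Without both arrays at the ends of principal component 1, Pmvk gave -0.20, Idi1 -0.060, Hsd17b7 0.15, Ebp 0.47 and Mylip -0.17. The number of arrays and, for dim genes such as Nr1h3, the signal over background limit these values.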

Other observations

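Genes of the isoprenoid branch, which take farnesyl and geranylgeranyl units to proteins, ubiquinone and dolichol, were below 0 for 11 of 19 and above for 8 (42.1%, background 50.4%). Their median was -0.08, and 0 genes had an unadjusted p under 0.05 in either direction. Fnta, the subunit shared by farnesyl and geranylgeranyl transferases, had log2 intensities of 9.98, 10.27 and 10.55 at 18 months, against 10.49, 10.67 and 10.74 at 2 months, and Rce1, the protease that trims prenylated proteins, differed by -0.36 (SE 0.23) and Coq5, a methyltransferase of ubiquinone synthesis, by -0.33 (SE 0.23). Nuclear receptor partners and cofactors of LXR were above 0 for 5 of 10 (50%, background 50.4%), with a median of 0.00. Rxra, a partner of LXR, had 8.72, 7.67 and 7.89 at 18 months, against 7.79, 7.94 and 7.48 at 2 months, and Pparg, another lipid-sensing receptor gene, differed by -0.67 (SE 0.41), while Ncoa3, a coactivator of nuclear receptors, differed by 0.29 (SE 0.22). Scp2, a sterol carrier of peroxisomes, had 11.36, 11.44 and 11.26 at 18 months, against 11.14, 10.82 and 11.20 at 2 months. Acox2, a peroxisomal oxidase of bile acid synthesis, had 6.57, 5.82 and 5.55 at 18 months, against 5.48, 5.32 and 5.52 at 2 months. Among genes of cholesterol transport, Abca5, a lipid transporter, differed by -0.44 (SE 0.23) and Osbpl1a, an oxysterol-binding protein gene, by 0.25 (SE 0.16).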
